A study of Homo sapiens with 6 samples.

Results

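The 10 genes described here encode the urokinase system, namely urokinase (PLAU), its receptor (PLAUR), tissue plasminogen activator (PLAT) and plasminogen (PLG), the secreted serine protease HTRA1, the metalloprotease subunits meprin alpha (MEP1A) and meprin beta (MEP1B), the membrane serine proteases hepsin (HPN) and TMPRSS2, and the secreted serine protease PRSS23. They were found on Affymetrix HG-U133 Plus 2.0 arrays, which read RNA levels with short DNA probes grouped into probe sets, as the probe sets that the platform annotation assigns to each symbol. This gave 21 probe sets for the 10 genes, out of 54675 on the array, and 1 further probe set that PLG shares with LPA. The genes were chosen with the difference between the clones already in view, so their differences and calls are given as a description, with no p-value, and support nothing further.

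RNA came from Hep3B, a human hepatocellular carcinoma cell line. The control was clone 2, carrying the plasmid pU6, and the other group was clone D20, carrying the plasmid siSDHB, which was made to silence SDHB, a subunit of mitochondrial complex II that carries iron-sulfur clusters. Each group was a single clone with 3 arrays, lettered A, B and C, and both clones were grown to near confluence with G418 at 400 µg/ml. The labels do not state whether the arrays of a clone came from separate cultures, so their spread may be technical, and silencing and clone cannot be told apart. The level of SDHB was not analysed here.

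Urokinase and tissue plasminogen activator are secreted serine proteases that cut plasminogen, made by hepatocytes, into plasmin. Plasmin dissolves fibrin and degrades matrix, and the urokinase receptor, held in the membrane by a lipid anchor, gathers urokinase at the cell surface. HTRA1 is a secreted protease that degrades matrix proteins and regulates TGF-beta family signalling, and the meprins are astacin metalloproteases best known from the brush border of kidney and intestine. Hepsin is abundant in liver and activates hepatocyte growth factor, while TMPRSS2 is a protease of epithelia.

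The arrays of a clone resembled each other more than those of the other clone. Over the probe sets tested, a correlation across features rather than replicates, Pearson's r lay between 0.964 and 0.967 for pairs of control arrays, 0.953 and 0.962 for pairs within D20, and 0.880 and 0.890 for pairs taken from different clones. The ratio of 3' to 5' signal of the GAPDH control probe sets, a sign of RNA integrity, was 1.08 to 1.15 in the control and 1.11 to 1.25 in D20. Of 9 hepatocyte markers measured none had a clone mean below the level of the filter described next, but their summed signal was 236994 to 242903 in the control and 129075 to 153989 in D20. By limma 6 of the 9 were lower, 1 was higher and 2 did not pass, the higher one being FGB, the fibrinogen beta chain, at 2004.5 ± 110.7 (SD, n = 3) and 6569.2 ± 297.2. Alpha-fetoprotein (AFP) went from 20569.5 ± 643.3 (SD, n = 3) to 403.5 ± 54.0. Albumin (ALB) read 43677.7 ± 1274.6 and 43934.7 ± 3964.5 with its brightest probe set, while its other probe sets differed by -2.39, -0.17 and 0.77 on the log2 scale. The summed signal of 8 fibroblast markers was 526.1 to 717.0 in the control and 3763.2 to 4528.1 in D20, of which COL1A1 made up 3780.0 ± 406.8 in D20, and COL1A2 and COL3A1 had D20 means of 84.2 and 20.3. Of the 6 fibroblast markers tested COL1A1 alone was higher by limma, LUM (lumican) was lower, at 160.4 ± 45.0 and 8.3 ± 9.1, and 4 did not pass. Of 5 endothelial markers 4, and of 3 blood cell markers 2, had means below the filter level in both clones, the exceptions being PECAM1 at 62.5 and 213.1 and CD14 at 155.7 and 93.9 in the control and D20. Of 4 biliary markers tested, KRT19 (0.39 on the log2 scale) and EPCAM (0.41) were higher in D20 by limma. SOX9 (-0.65) was lower and KRT7 (-0.28) did not pass. The part of this shift in liver transcripts and COL1A1 in the results below was not tested. As in any bulk sample, fewer cells that make a transcript and less of it per cell cannot be told apart.

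Signals are MAS5 values, linear brightness estimates that each array reports per probe set, and differences are given as D20 minus control on log2(signal + 16). A probe set was tested if its mean level lay above the dimmest 40%, a signal of 43.2. Of the 21 probe sets 16 were tested, representing 8 genes, and PLAT and MEP1B were not. By limma with Benjamini-Hochberg adjustment over the 32768 that were tested, 11 were called higher in D20 and 2 lower, with background shares of 19.5% called higher and 17% called lower. The 11 belong to PLAU, PLAUR, HTRA1, TMPRSS2 and PRSS23, and the 2 to MEP1A and HPN. In 14 of the 16 the arrays of the clones did not overlap, against 47.2% of all probe sets tested, and in the 5 left untested they all overlapped. Of the 16 tested, 6 had a clone mean below 43.2 in their dimmer clone and passed the filter through the brighter one, so nothing is read from these counts. Precision is limited by the number of arrays.

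The promoters of HTRA1, PRSS23 and PLAUR, genes higher in D20, are shown as the GC-rich and AP-1 examples, with the bases that match a searched motif in capitals. Each is the 250 bases before the gene start in RefSeq's GRCh38.p14, 5′ to 3′ on the gene's strand. They lie at chr10:122461303-122461552 (HTRA1, plus strand), chr11:86800292-86800541 (PRSS23, plus strand) and chr19:43670170-43670419 (PLAUR, minus strand).
HTRA1: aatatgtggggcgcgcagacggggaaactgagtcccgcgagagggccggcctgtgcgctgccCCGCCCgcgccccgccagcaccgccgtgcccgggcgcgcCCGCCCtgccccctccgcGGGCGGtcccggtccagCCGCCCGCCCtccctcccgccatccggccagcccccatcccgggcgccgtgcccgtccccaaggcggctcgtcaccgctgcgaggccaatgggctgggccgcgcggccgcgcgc
PRSS23: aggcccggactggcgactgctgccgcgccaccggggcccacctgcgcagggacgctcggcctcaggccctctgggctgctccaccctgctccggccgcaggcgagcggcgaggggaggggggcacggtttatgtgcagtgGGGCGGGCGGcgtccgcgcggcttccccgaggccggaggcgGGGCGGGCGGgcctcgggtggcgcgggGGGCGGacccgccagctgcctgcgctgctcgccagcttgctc
PLAUR: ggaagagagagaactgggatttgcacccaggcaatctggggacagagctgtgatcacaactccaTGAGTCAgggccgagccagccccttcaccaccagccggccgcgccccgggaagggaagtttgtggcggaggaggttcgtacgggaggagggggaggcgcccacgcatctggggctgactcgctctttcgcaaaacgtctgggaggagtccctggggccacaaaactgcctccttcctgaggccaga

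The motifs searched on both strands were the AP-1 site TGANTCA, the hypoxia-inducible factor core ACGTG, the GC box GGGCGG bound by SP1 and the TATA box TATAAA. HTRA1 held 5 GC boxes and PRSS23 held 5, some of them overlapping each other, and 42.6% of 35116 promoters of this length hold at least 1. PLAUR held 1 AP-1 match, TGAGTCA, from base -186 to base -180 counted from the gene start, a motif found in 6.57% of promoters. Their base composition differed from that of PLAU, with 81.2% G and C in HTRA1, 79.6% in PRSS23 and 63.2% in PLAUR against 46.8% in PLAU and a median of 58% over all promoters. HTRA1 held 39 CpG pairs and PRSS23 32, against a median of 11, and PLAU held 4. The PLAU stretch held none of the 4 motifs, which says only that these letters are not in this window. In the other promoters matched, 7 of the 10 members in all, HPN held 2 GC boxes, MEP1B had 1 TATA box from base -50 to base -45 and PLG held none. A match is a description of the letters, not a binding site.

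Of the activators, urokinase was near the floor in the control and higher in D20. PLAU probe set 205479_s_at read 23.9, 13.6 and 16.4 on control arrays A, B and C and 313.3, 150.8 and 282.9 on the D20 arrays. Its second probe set, 211668_s_at, read 37.7, 13.1 and 11.5 in the control and 147.0, 134.0 and 145.4 in D20. In both, every control array lay below the filter level of 43.2 and every D20 array above it, with the clones well apart. The differences were 2.92 ± 0.41 (SE) and 2.17 ± 0.45, and because the control was so dim their size depended on the pseudocount, falling to 1.89 and 1.30 with a pseudocount of 64. Array B of D20 was the lowest of its clone in 205479_s_at but lay close to the others in 211668_s_at.

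Tissue plasminogen activator was not measurable above the floor in a steady way. PLAT probe set 201860_s_at read 25.3, 50.8 and 14.9 in the control and 49.7, 4.7 and 63.3 in D20, so the clones overlapped and the highest and the lowest array were both of D20. It was filtered out, with a difference of 0.11 ± 0.60 (SE).

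The urokinase receptor was present in both clones and brighter in D20. PLAUR probe set 210845_s_at read 380.3, 246.7 and 256.6 in the control and 699.5, 920.6 and 722.3 in D20, a difference of 1.37 ± 0.19 (SE). PLAUR probe set 211924_s_at read 118.1, 156.6 and 201.1 in the control and 616.3, 727.6 and 504.9 in D20, a difference of 1.87 ± 0.23. The lowest D20 array exceeded the highest control array in both. PLAUR probe set 214866_at was low in both clones, with 94.5, 59.8 and 72.1 against 131.2, 146.2 and 73.6, and its clones overlapped through D20 array C. It had a difference of 0.51 ± 0.38, was not called, and without D20 array C the difference was 0.77.

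Plasminogen, the substrate of both activators, was dim in both clones and its probe sets disagreed. PLG probe set 209977_at read 98.0, 90.9 and 81.8 in the control and 29.3, 24.5 and 60 in D20, with no overlap and a difference of -1.03 ± 0.45 (SE). It was not called, except when the variance was fitted without a trend, and its difference was -0.61 with a pseudocount of 64. PLG probe set 230931_at read 70.8, 120.6 and 54.9 in the control and 85.8, 77.8 and 72.1 in D20, all D20 arrays lying within the control's range. PLG probe set 240033_at was filtered out, its readings of 9.3, 70.3 and 5.6 in the control and 42.3, 7.3 and 13.5 in D20 being scattered around the floor. The probe set assigned to both PLG and LPA, 209978_s_at, read 55.3, 10.6 and 11.8 in the control and 9.4, 25.9 and 7.3 in D20. LPA encodes apolipoprotein(a), a close relative of plasminogen, so this last probe set cannot be ascribed to either gene.

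HTRA1 went from the floor to a clear signal. Its only probe set, 201185_at, read 15.3, 7.2 and 16.6 in the control and 962.7, 1260.0 and 804.7 in D20. All control arrays lay below the filter level and all D20 arrays at many times that level, the D20 mean being 23.4 times 43.2. The difference was 5.13 ± 0.29 (SE), or 6.22 and 3.78 with pseudocounts of 1 and 64.

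Of the meprin subunits, the alpha subunit had a clear signal in the control and was at the floor in D20. MEP1A probe set 206000_at read 3322.1, 4264.6 and 3458.7 in the control and 6.9, 6.3 and 3.0 in D20. The D20 readings lay far below the filter level, so the size of the difference, -7.43 ± 0.21 (SE), is set by the pseudocount, and the control mean was 85.2 times the filter level. MEP1B probe set 207251_at read 45.6, 5.5 and 13.1 in the control and 15.7, 23.6 and 5.2 in D20, overlapping and filtered out. Meprin alpha is released from the cell as large homo-oligomers and meprin beta stays in the membrane, where it can also hold meprin alpha. The mean signal of the alpha subunit was above the filter level in the control only, and that of the beta subunit in neither clone.

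Hepsin, the membrane serine protease abundant in liver, was bright in both clones and moderately dimmer in D20. HPN probe set 204934_s_at read 3308.5, 4774.3 and 3570.9 in the control and 2324.7, 2327.0 and 2228.8 in D20. The clones did not overlap, and the D20 arrays lay close together while control array B stood above the other two. The difference was -0.74 ± 0.12 (SE), the smallest in size of the 13 called, and it was -0.53 after scaling each array to its poly-A spike-ins.

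TMPRSS2 was higher in D20 in each of its 3 probe sets that were tested. TMPRSS2 probe set 226553_at read 220.4, 348.1 and 231.1 in the control and 1121.3, 1163.2 and 944.2 in D20, a difference of 1.97 ± 0.19 (SE). TMPRSS2 probe set 211689_s_at read 83.9, 113.9 and 82.4 in the control and 449.8, 336.1 and 362.6 in D20, a difference of 1.87 ± 0.25. TMPRSS2 probe set 205102_at read 105.6, 172.7 and 199.4 in the control and 395.4, 368.1 and 387.1 in D20, a difference of 1.23 ± 0.25. The clones lay apart in all 3. The fourth, 1570433_at, was filtered out, with 18.7, 10.1 and 5.9 in the control against 15.9, 75.0 and 13.4 in D20, where only array B stood above the filter level.

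PRSS23, a secreted trypsin-fold protease found in several tissues, was higher in D20 in each of its 3 tested probe sets, with no overlap. PRSS23 probe set 202458_at read 313.0, 316.2 and 292.2 in the control and 4840.6, 4415.5 and 4264.0 in D20, a difference of 3.81 ± 0.11 (SE). PRSS23 probe set 226279_at read 171.2, 71.0 and 199.1 in the control and 4333.7, 4445.4 and 4592.6 in D20, a difference of 4.88 ± 0.26. PRSS23 probe set 229441_at read 19.6, 69.3 and 9.3 in the control and 1024.1, 825.7 and 1036.1 in D20, a difference of 4.52 ± 0.38. Unlike HTRA1 and PLAU, this gene was above the floor in the control in 202458_at and 226279_at, so its difference depended less on the pseudocount. With a pseudocount of 64 these were 3.62 and 4.48. The fourth probe set, 1565677_at, stayed between 4.4 and 15.5 on all arrays and was filtered out.

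**Figure D1:**
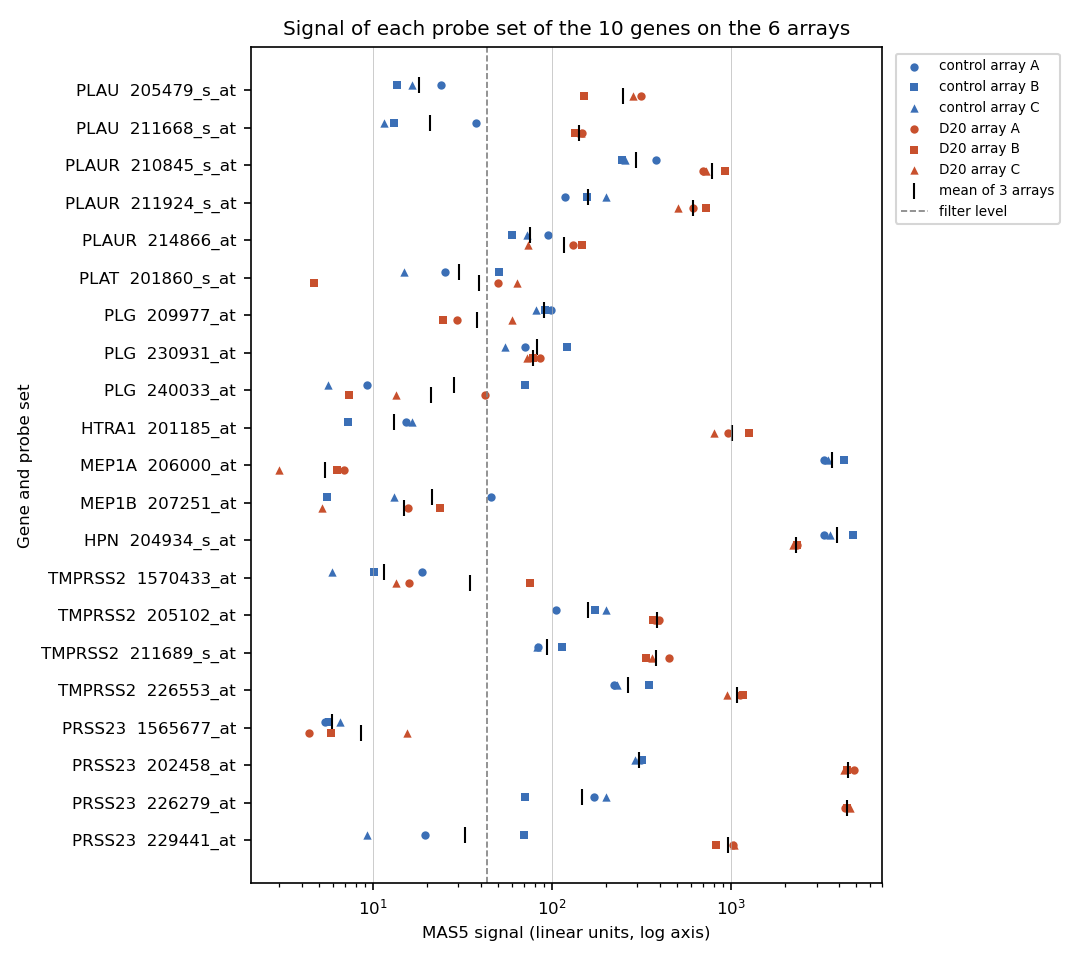
MAS5 signal (log axis) of each probe set of the 10 genes on the 3 control and 3 D20 arrays, with the mean of each clone as a black bar and the filter level of 43.2 as a dashed line. MEP1A lies at 3322.1 to 4264.6 in the control and at 3.0 to 6.9 in D20, HTRA1 and PLAU lie below the line in the control only, PLAT scatters around it in both, and every MEP1B array but 1 of the control lies below it.

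Within a gene the called probe sets had the same direction in each of the 4 genes with more than 1 called. Probe sets of these genes without a call were also positive, at 0.51 in PLAUR, 0.70 in TMPRSS2 and 0.14 in PRSS23. The called differences ranged from 2.17 to 2.92 in PLAU, from 1.37 to 1.87 in PLAUR, from 1.23 to 1.97 in TMPRSS2 and from 3.81 to 4.88 in PRSS23, while the dimmest probe set of each of TMPRSS2 and PRSS23 was filtered out and overlapped.

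**Figure D2:**
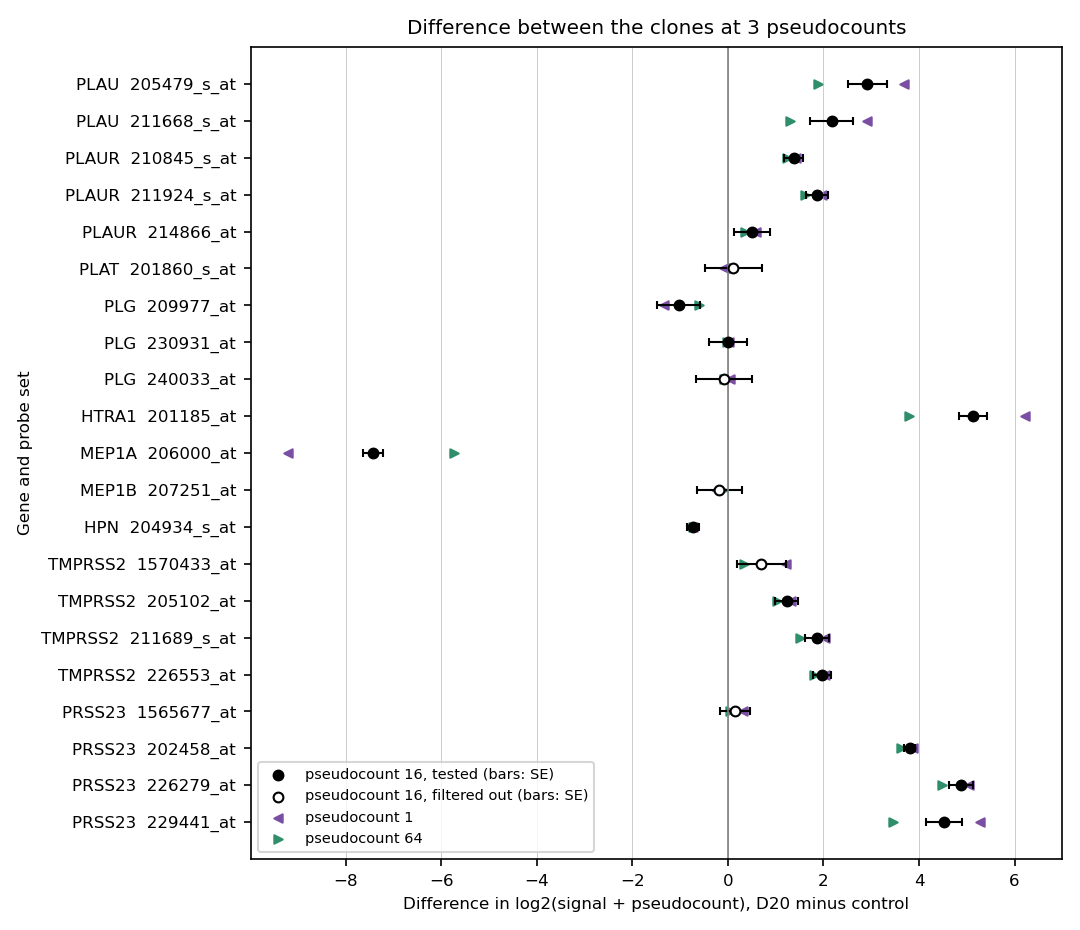
Difference between the clones (D20 minus control, log2 scale) for each probe set, with its SE at a pseudocount of 16 and the values at pseudocounts of 1 and 64. The differences of PRSS23 202458_at and HPN hardly move with the pseudocount, while that of MEP1A runs from -9.22 to -5.75 and that of HTRA1 from 6.22 to 3.78.

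The genes next to the members on their chromosomes were read in RefSeq's order, taking 10 tested genes on each side. Whether members and neighbours shifted together was not tested. The median difference of the neighbours lay between -0.09 around MEP1A and 0.25 around PLAUR, with a median over all genes tested of 0.04. Around PLAUR 6 of 20 were called higher and 0 lower, and around TMPRSS2 7 and 0, against 23.6% and 20.7% of all genes. Both directions were called around each of the other members. To the left of PLAUR the median was 0.68 and to its right -0.01. Of the nearest tested neighbours, the gene with the largest difference lay beside MEP1A. The nearest tested gene to its left, PLA2G7, which encodes a secreted phospholipase that inactivates platelet-activating factor, was lower by limma (-4.75 ± 0.34 SE, Benjamini-Hochberg adjusted p = 2.5e-07). The nearest to its right, ADGRF5, an adhesion receptor, was higher (1.59 ± 0.47, limma, Benjamini-Hochberg adjusted p = 0.017). These neighbours were picked by position, and those named were singled out after their values were seen. Beside HTRA1, PLEKHA1 was higher (0.58, limma, Benjamini-Hochberg adjusted p = 0.0010), and beside TMPRSS2 the interferon-induced MX1 was higher (1.58, limma, Benjamini-Hochberg adjusted p = 0.017). On the other side of these, DMBT1 beside HTRA1 (-1.26, limma, Benjamini-Hochberg adjusted p = 0.085) and LINC00479 beside TMPRSS2 (-0.34) did not pass. GAREM1, beside the untested MEP1B, was higher (1.78, limma, Benjamini-Hochberg adjusted p = 6.0e-07). Beside PLAUR, CADM4 was higher (1.27, limma, Benjamini-Hochberg adjusted p = 0.040) and SMG9 on the other side did not pass (-0.02). Both nearest neighbours of PLAU were called higher, CAMK2G at 0.76 and VCL at 0.38.

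Other genes of the same systems were taken from 6 lists of 92 genes, of which 68 were tested. The lists were chosen with earlier results of these data known, so nothing is read from their counts. By limma, with p-values adjusted by Benjamini-Hochberg across every tested probe set, 26 were higher in D20 and 14 lower, while 28 did not pass, against 23.6% of all genes called higher and 20.7% called lower. With each array centred on its median 20 were higher and 17 lower, and with spike-in scaling 27 and 11. Over all probe sets the calls split into 6397 higher and 5555 lower, against 4962 and 7182 with centring and 8979 and 3413 with spike-in scaling.

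Among inhibitors, receptors and binding partners of the plasminogen system, 8 of 17 rose and 5 fell, with a median difference of 0.11. SERPINE2, or protease nexin-1, a cell-surface serpin that inhibits urokinase, plasmin and thrombin, rose from 454.6 ± 121.2 (SD, n = 3) to 22449.8 ± 1231.9, a difference of 5.61 ± 0.14 (SE; limma, Benjamini-Hochberg adjusted p = 4.5e-11). MRC2, the endocytic collagen receptor that associates with the urokinase receptor, rose from 104.4 ± 47.7 to 1225.7 ± 182.8 (3.45; limma, Benjamini-Hochberg adjusted p = 8.4e-07). The other, dimmer probe sets of SERPINE2 and MRC2 were also called higher, with smaller differences of 3.59 and 1.76. In the other direction, A2M, the plasma inhibitor that traps proteases of many kinds, fell from 29072.9 ± 758.7 to 595.9 ± 56.3. Its difference was -5.57, but its other, dim probe set was at 0.52 and did not pass, and their mean was -2.53. SERPINI1, or neuroserpin, an inhibitor of tissue plasminogen activator, fell from 4298.6 ± 204.3 to 525.3 ± 98.0 (-3.01; limma, Benjamini-Hochberg adjusted p = 3.0e-09).

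Of 10 tested membrane serine proteases, their inhibitors and hepatocyte growth factor genes, 2 rose and 2 fell, with a median of -0.27. ST14, or matriptase, a membrane protease that like hepsin activates hepatocyte growth factor and prourokinase, rose from 123.3 ± 45.0 (SD, n = 3) to 618.0 ± 60.5 (2.23; limma, Benjamini-Hochberg adjusted p = 1.5e-05). SPINT1, the Kunitz inhibitor of matriptase and hepsin, rose from 725.8 ± 118.6 to 2350.3 ± 462.6 (1.67), but its other, dimmer probe set was at 0.59 and did not pass. MST1, which encodes macrophage-stimulating protein, a growth factor of liver origin, fell from 3177.4 ± 409.0 to 793.3 ± 158.2 (-1.99), though its probe sets are of the _x_at kind that can also read near-identical copies of the gene. MET, the receptor of hepatocyte growth factor, had a difference of -0.41 and passed in its brightest probe set, but another rose by 0.69 and the mean of its probe sets was 0.14, so no direction can be given for it. The call was also lost without control array A (-0.32), control array C (-0.38) or D20 array B (-0.33), with spike-in scaling (-0.20; limma, Benjamini-Hochberg adjusted p = 0.21) and without the variance trend (limma, Benjamini-Hochberg adjusted p = 0.11).

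In the list of HTRA proteases and proteins that HTRA1 is reported to cut, 5 of 13 rose and 2 fell, with a median of 0.11. HTRA3, a close relative of HTRA1, rose from 117.6 ± 41.2 (SD, n = 3) to 370.9 ± 42.9 (1.58; limma, Benjamini-Hochberg adjusted p = 5.8e-04). Its other, dimmer probe set was at 0.57 and did not pass. HTRA2, the mitochondrial member, passed by a small margin in its brightest probe set (0.40; limma, Benjamini-Hochberg adjusted p = 0.021). That probe set did not pass without control array C (0.29), without D20 array A (0.34), with median centring (0.27) or without the variance trend (limma, Benjamini-Hochberg adjusted p = 0.087). The other HTRA2 probe set was at 0.64 (limma, Benjamini-Hochberg adjusted p = 0.0013). TGFB2, a TGF-beta ligand, rose from 488.5 ± 35.3 to 3230.0 ± 169.2 (2.69), with all 4 of its tested probe sets above 2. FBLN5, an elastic fibre protein, rose by 1.57, and BGN, the matrix proteoglycan biglycan, fell from 442.1 ± 137.2 to 73.3 ± 58.9 (-2.55).

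Of 11 tested astacins, meprin inhibitors and proteins that meprins are reported to cut, 5 rose and 2 fell, with a median of 0.43. IL18, a cytokine whose precursor meprins can cut, rose from 30.3 ± 21.9 (SD, n = 3) to 2845.6 ± 212.6 (6.08; limma, Benjamini-Hochberg adjusted p = 1.6e-08). The control mean of IL18 lay below the filter level, so it passed the filter through D20. The size of its difference therefore depended on the pseudocount, at 6.90 and 4.97 with pseudocounts of 1 and 64. COL1A1, whose procollagen form meprins and BMP1 process, was at 7.78 in its brightest probe set and 5.35 in another. However, 2 further tested ones were at -0.12 and 0.31, and the mean of the 4 tested was 3.33. The brightest COL1A1 probe set also had a control mean below the filter level. Its difference was 10.75 and 5.88 with pseudocounts of 1 and 64. BMP1, the astacin that trims procollagens, rose by 1.21, and NID1, the basement membrane protein nidogen, fell from 8666.8 ± 181.5 to 2484.4 ± 220.8 (-1.80).

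Among further genes grouped by their PRSS symbol, which need not share a protease family or location, 4 of 7 tested rose and 0 fell (limma, Benjamini-Hochberg). At an unadjusted p under 0.05 by limma 0 were lower as well, and the median was 0.77. They were PRSS35 (1.99), PRSS12 (1.54), PRSS22 (0.96) and PRSS16 (0.77), all of low signal, with D20 means between 130.7 and 367.8. PRSS22 did not pass without control array B (0.93), control array C (0.84), D20 array A (0.89) or D20 array B (0.78). Nor did PRSS22 pass with median centring (0.83) or no filter. PRSS35 had a control mean of 22.6, below the filter level, and was at 1.17 with a pseudocount of 64. PRSS16 did not pass without D20 array C (0.63). Of 10 transcription factors described at member genes 2 rose and 3 fell, with a median of -0.23. JUNB, a component of AP-1, rose from 456.2 ± 82.6 (SD, n = 3) to 1953.7 ± 377.2 (2.06; limma, Benjamini-Hochberg adjusted p = 8.2e-07). The other AP-1 components in the list, JUN (-0.32), FOS (-0.44) and FOSL1 (-0.14), did not pass, so no direction is given for AP-1. SP1, which binds GC boxes, fell from 2544.8 ± 321.7 to 836.3 ± 41.3 (-1.58, or -0.995 as the mean of its probe sets). Another SP1 probe set was at -1.24 and passed, while 214732_at (-0.83) and 224760_at (-0.33) did not pass. RELA fell by 0.89 on the log2 scale, but its other probe set was at -0.45 and did not pass. NFKB1 fell by 0.52, or by 0.30 with spike-in scaling, where it did not pass.

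**Figure D3:**
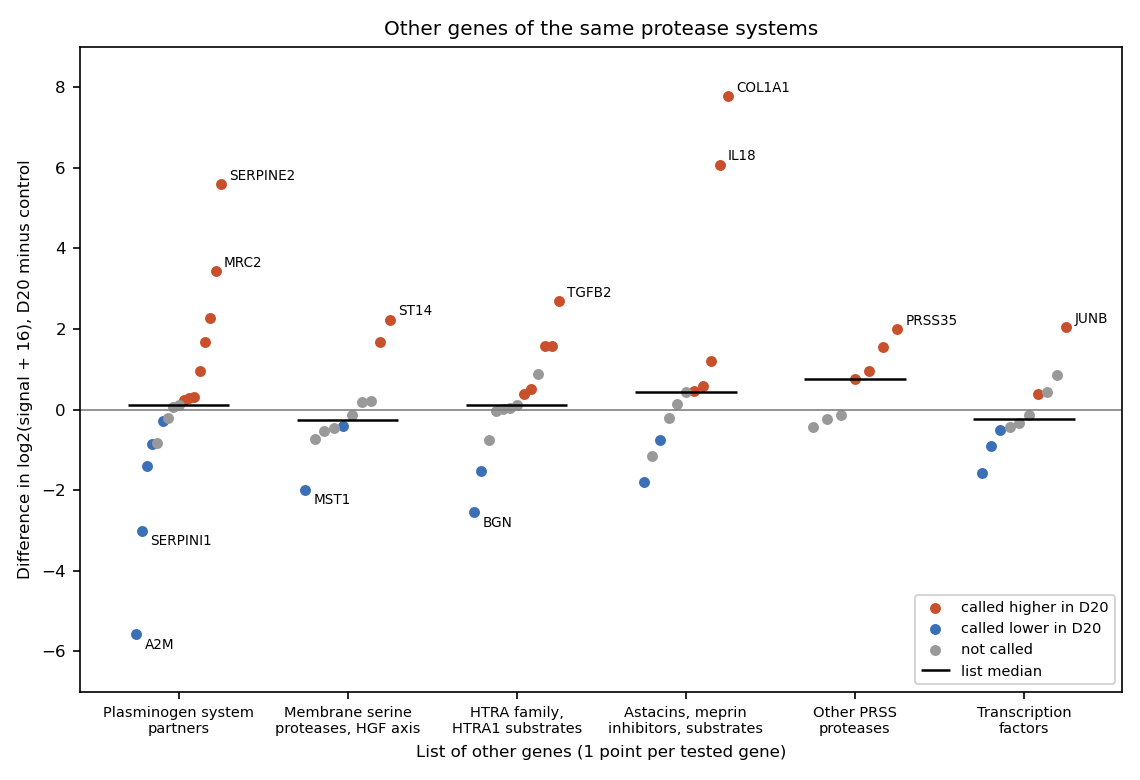
Difference in log2(signal + 16), D20 minus control, of the 68 tested genes of the 6 lists, 1 point per gene, coloured by the limma call and with each list's median as a line. SERPINE2 at 5.61 and A2M at -5.57 mark the ends of the plasminogen system partners, and the list medians lie between -0.27 and 0.77.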

How the data were processed

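The deposited table holds 1 intensity value per probe set and array, made by the authors with MAS5 per the submitters' processing notes, for 3 control and 3 D20 arrays; the version and the scaling target were not given in the sources used here, and no detection calls were used. Names come from the platform's GEO annotation, with symbols updated by Entrez identifier to RefSeq (GRCh38.p14), and those with several symbols were tested but not named. Values were taken as log2(signal + 16), which understates the change of dim genes. The 62 control probe sets and the dimmest 40% of the others were left out, and the remaining 32768 were compared with limma 3.58.1 in R 4.3.3 (lmFit, eBayes with a variance trend, two-sided, Benjamini-Hochberg threshold 0.05). An exact permutation test of 3 arrays against 3 cannot go below p = 0.1 and was not used. A gene outside the 10 was read from the brightest of its tested probe sets, those without _x_at first. Named genes are the 10 members, up to 4 called genes of each list with the largest differences, HTRA2 and ST14, AFP and ALB. Genes beside members, JUN, FOS and FOSL1, the other markers and further albumin probe sets were named after their values were seen. Some listed genes were not analysed here. The members and lists were chosen with earlier results of these data known. The fit was also run on simulated data with upward changes only and independent noise, unlike these data, so nothing is read from that run. Alternatives covered the pseudocount, filter, scaling, variance trend, replicate block, choice of probe set and each array left out.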

Additional observations from a re-analysis of the deposited data

How the results depend on the processing

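The counts of called probe sets of the 10 genes were 11 higher and 2 lower in the main analysis, and between 9 and 11 higher and 2 and 3 lower over all 15 alternatives tried for them. The count of 9 came with the dimmest 60% left out, which removed PLAU, and the count of 3 came without the variance trend. Leaving out each array in turn gave 11 and 2 each time, 21 to 24 higher and 12 to 16 lower among the other genes of the systems, and 5312 to 5884 higher and 4398 to 5431 lower over all probe sets. Spike-in scaling reduced the probe sets called lower to 3413, as it moved the median difference of all probe sets from 0.03 to 0.23. Of 235 values of the 16 tested member probe sets under alternatives, 228 kept their direction and their side of the threshold. PLG 230931_at lay at 0.00034 in the main analysis and changed sign to -0.011 with a pseudocount of 64, -0.13 with median centring, -0.12 with quantile normalization, and -0.21 to 0.27 with each array left out. ALB changed sign to -0.13 with median centring, -0.056 with quantile normalization, -0.44 as the mean over its probe sets and -2.39 once multi-transcript probe sets (_s_at, _x_at, _a_at) were dropped, and lay between -0.051 and 0.078 with each array left out. MET changed sign to 0.14 as the mean over its probe sets. The cause was not tested. Deviations from the clone mean correlated at -0.02, 0.05 and 0.01 between same-lettered arrays, and from -0.059 to 0.052 between differently lettered ones. No pairing by letter was seen, but these values cannot tell weak pairing from none. A fit with the replicate block gave 11 and 2 calls for the 10 genes, 26 and 14 for the other genes and 6658 and 5899 for all probe sets. Dim signals limit PLAT, MEP1B and PLG, for which no difference was detectable in most probe sets.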
